A study of Mus musculus with 9 samples.

Results

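Gene expression in spermatids that lack Wip1 was compared with expression in wild type spermatids. The members are 6 of the 9 mouse arrays of the series, chosen by their genotype label: 3 labelled Wip1-/- and 3 labelled Wip1+/+, called wild type here. The remaining 3 arrays carry the label Wip1-/- ATM +/- and entered no main value. RNA came from cells labelled spermatid and was hybridized to Illumina Mouse WG-6 v2.0 bead arrays. The sources used here do not give the strain, the age, the allele or the way the spermatids were isolated. The design text speaks of triplicate hybridizations, and no label ties an array to an animal of its own. A p-value here reflects the spread between these 6 arrays, possibly a technical one, and its precision is limited by their number.

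Spermatids are the haploid cells that arise when meiosis ends. While they turn into sperm they build an acrosome and a flagellum, replace most histones first by transition proteins and then by protamines, and silence transcription as the nucleus condenses, so that many late proteins are made from stored mRNA. Wip1, encoded by Ppm1d, is a serine/threonine phosphatase of the PPM family. It removes phosphate groups that the damage kinase ATM places on itself, on p53 and on the histone variant H2AX, and so ends the DNA damage response. By its title, the series concerns heterochromatin silencing by Wip1 and a DNA methylation that depends on ATM and BRCA1.

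The median scanner intensity was 101.5 to 108.6 on the wild type arrays and 102.6 to 121.8 on the Wip1-/- arrays. A probe was counted as detected when its detection p was under 0.05. Between 37.9% and 39.8% of 43582 probes were detected on the wild type arrays and between 41.3% and 42.0% on the Wip1-/- arrays, so the ranges did not overlap. After normalization, log2 levels correlated across genes at 0.989 to 0.994 within a genotype and at 0.977 to 0.984 between genotypes, and genes are not independent replicates. All 12 spermatid markers on the array were detected on all 6 arrays, and their summed normalized intensity was 250900 to 266400 in wild type and 248800 to 254400 in Wip1-/-. Their detection does not measure purity. Of 30 meiotic prophase markers 20, and of 48 fibroblast and extracellular matrix markers 22, were also detected on all 6 arrays.

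The genes named in the label and title were read first. Ppm1d, through the brightest of its probes (ILMN_3133522), had log2 levels of 9.24, 9.56 and 9.56 in wild type and of 8.72, 8.96 and 8.68 in Wip1-/-. Every Wip1-/- array lay below every wild type array, with a difference of -0.67 (SE 0.14, limma adjusted p = 0.0132). The call ended without Wip1-/- replicate 1 (limma adjusted p = 0.058), without Wip1-/- replicate 3 (limma adjusted p = 0.060) and with the mean of all detected Ppm1d probes, which gave +0.17 (limma adjusted p = 0.268). A further Ppm1d probe (ILMN_1226504) went the other way. It was not detected on any wild type array, at 4.88, 4.63 and 4.89, and detected on all 3 Wip1-/- arrays, at 6.24, 5.88 and 6.09, at least 1.42-fold higher (limma adjusted p = 0.00177). Probe ILMN_1237129 differed by -0.11 and ILMN_1246823 was not detected on any of the 6 arrays. The sources used here do not say where these probes lie relative to the deleted part of the gene, and a probe outside that part checks nothing. Signal at Ppm1d thus remained detectable on all 3 Wip1-/- arrays.

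Atm, the damage kinase that Wip1 opposes, was higher in Wip1-/-. Its brightest probe (ILMN_2492491) gave 7.07, 7.30 and 7.12 in wild type and 7.97, 8.01 and 7.95 in Wip1-/-. The genotypes did not overlap, and the difference was +0.81 (SE 0.11, limma adjusted p = 0.0028), or 1.76-fold. The call held under all 15 alternative settings tried. A second Atm probe (ILMN_1258206) differed by +0.65 (limma adjusted p = 0.021), while ILMN_2783896, detected on 1 wild type and 2 Wip1-/- arrays, differed by -0.09 (limma adjusted p = 0.734). The 2 probes of Brca1, the repair protein that ATM phosphorylates, were detected on 0 wild type arrays and on at most 2 Wip1-/- arrays, so Brca1 was not tested.

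Across the transcriptome, 1841 of 10073 genes tested (18.3%) differed at a limma adjusted p under 0.05, and such genes are called here. In Wip1-/-, 1041 (10.3%) were higher and 800 (7.94%) were lower. Changes were mostly small: the median size of a called change was 1.55-fold. Only 131 called genes (1.3% of those tested) were more than 2-fold higher, and 80 (0.794%) more than 2-fold lower. The genotypes did not overlap for 3875 genes (38.5%), of which 2274 were higher and 1601 lower in Wip1-/-. The number of calls rested on single arrays: it was 733 without Wip1-/- replicate 1, 1035 without replicate 2 and 752 without replicate 3, and 1361 to 1736 without 1 of the wild type arrays. Scaling each array to a common median in place of quantile normalization gave 72.2% of calls as higher, against 56.5%, and a median change over all genes of 0.10, against 0.03.

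**Figure D1:**
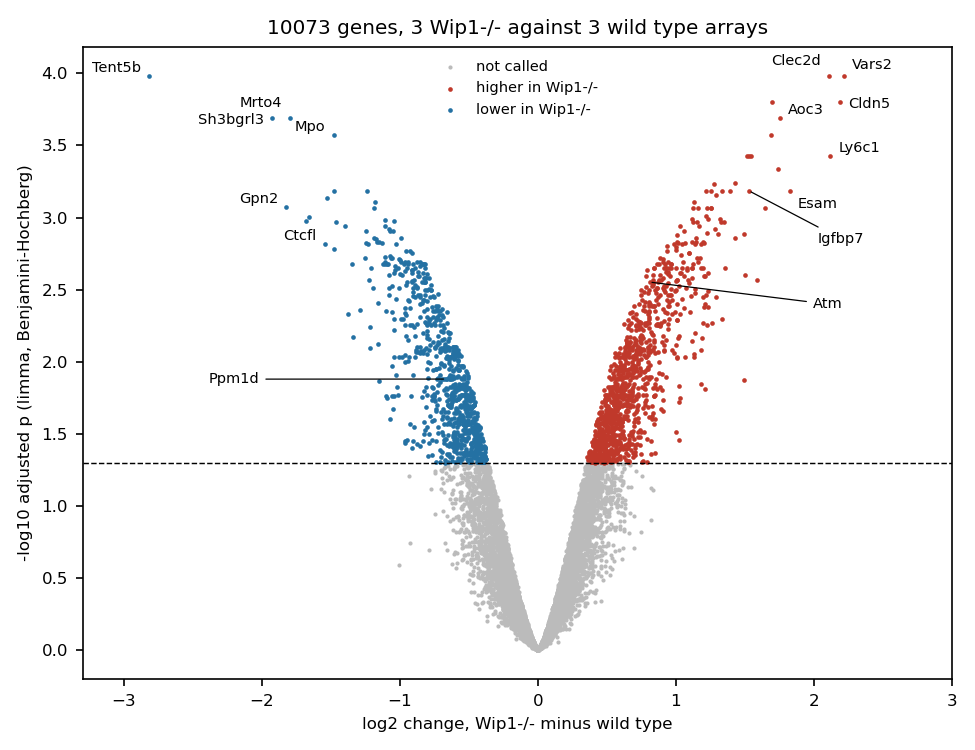
Change and test result for all 10073 genes. The x axis is the log2 change, Wip1-/- minus wild type (3 arrays each), the y axis is -log10 of the limma adjusted p, and the dashed line marks 0.05; red points were called higher (1041) and blue points lower (800). Tent5b, at -2.81, lies farthest from 0, and Ppm1d and Atm lie among the many smaller changes.

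Calls were counted by direction in 4 classes of equal size by mean level. In the dimmest class 12.6% of genes were called higher and 5.32% lower, in the second 12.9% and 8.58%, and in the third 10.2% and 8.50%. In the brightest class, which holds the abundant spermatid transcripts, 5.64% were higher and 9.37% lower. The detection filter lets dim genes enter through either genotype alone. Probes of 326 genes were detected on every Wip1-/- array and no wild type array, and probes of 32 genes the reverse. Among genes detected on all 6 arrays, 10.9% were called higher and 9.97% lower. The part of the filter in the shares by class was not tested.

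The largest rise was in Vars2, the mitochondrial valyl-tRNA synthetase. Its log2 levels were 6.29, 6.16 and 5.97 in wild type and 8.45, 8.27 and 8.35 in Wip1-/-. The genotypes were far apart, with a difference of +2.22 (SE 0.13, limma adjusted p = 0.000104), or 4.65-fold. Cldn5, the claudin of endothelial tight junctions, came next with 5.42, 5.14 and 5.55 in wild type, where 1 array detected it, and 7.67, 7.44 and 7.57 in Wip1-/-. It was +2.19 (SE 0.14, limma adjusted p = 0.000158) and did not overlap. Their promoters, together with that of Tent5b, the gene with the deepest fall, are shown because the study asks about DNA methylation and these 3 genes carry the largest changes. The sequences are RefSeq's for GRCm38.p6, 250 bases before to 50 after the start, with each CpG, the dinucleotide that can be methylated, in capitals.
Vars2, chr17:35667543-35667842, minus strand: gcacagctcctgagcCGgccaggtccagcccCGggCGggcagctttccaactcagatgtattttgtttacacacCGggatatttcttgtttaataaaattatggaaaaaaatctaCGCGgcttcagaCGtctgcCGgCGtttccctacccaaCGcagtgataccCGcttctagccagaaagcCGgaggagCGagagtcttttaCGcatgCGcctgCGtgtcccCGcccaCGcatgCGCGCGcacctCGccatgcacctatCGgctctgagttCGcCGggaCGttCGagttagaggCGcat
Cldn5, chr16:18776597-18776896, plus strand: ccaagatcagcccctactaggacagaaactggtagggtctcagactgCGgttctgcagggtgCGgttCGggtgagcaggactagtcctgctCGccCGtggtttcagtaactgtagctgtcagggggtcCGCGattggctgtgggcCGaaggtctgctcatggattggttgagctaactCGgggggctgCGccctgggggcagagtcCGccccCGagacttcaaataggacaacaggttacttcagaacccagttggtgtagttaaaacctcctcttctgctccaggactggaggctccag
Tent5b, chr4:133479883-133480182, plus strand: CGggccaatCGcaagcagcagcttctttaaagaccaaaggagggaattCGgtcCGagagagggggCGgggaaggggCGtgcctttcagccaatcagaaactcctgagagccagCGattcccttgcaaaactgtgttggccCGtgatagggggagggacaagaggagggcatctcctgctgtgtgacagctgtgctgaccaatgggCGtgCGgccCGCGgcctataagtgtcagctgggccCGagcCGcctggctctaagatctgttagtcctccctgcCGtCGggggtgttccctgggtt
The Vars2 promoter held 28 CpG in 300 bases, an observed over expected ratio of 1.16. Cldn5 held 12 (0.476) and Tent5b 16 (0.592). No methylation was measured on these arrays.

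Among the 20 largest rises are genes of vessel walls and connective tissue. Ly6c1, a GPI-anchored antigen found on endothelium and monocytes, was not detected in wild type (4.80, 5.47 and 5.06) and stood at 7.23, 7.27 and 7.19 in Wip1-/-, at least 3.16-fold higher (limma adjusted p = 0.000374). For such genes the bound divides the brighter genotype's mean by a floor taken on each array of the dimmer one, the lowest signal detected there or the gene's own signal if higher. Esam, an endothelial adhesion molecule, was also undetected in wild type (4.80, 5.38 and 4.93) and reached 6.89, 6.93 and 6.76, at least 2.45-fold higher (limma adjusted p = 0.000654). Aoc3, an amine oxidase of smooth muscle and endothelium, rose from 6.29, 6.55 and 6.52 to 8.21, 8.15 and 8.25 (+1.75, limma adjusted p = 0.000203). In each of these genes all Wip1-/- arrays lay above all wild type arrays.

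Ogn, a small proteoglycan of connective tissue, went from 5.64, 5.96 and 5.98 to 7.41, 7.67 and 7.72 (+1.74). Pdgfra, a growth factor receptor of mesenchymal cells, went from 6.09, 6.07 and 6.04 to 7.75, 7.46 and 7.54 (+1.52). Igfbp7, a secreted binding protein and the brightest of these genes, went from 9.49, 9.22 and 9.52 to 11.03, 11.04 and 10.76 (+1.53). The limma adjusted p was 0.000464 for Ogn, 0.000374 for Pdgfra and 0.000654 for Igfbp7, and none of them overlapped. Others among the 20 were Cav1, the coat protein of caveolae (+1.49), Mfsd2a, a lipid transporter known from brain endothelium (at least 1.62-fold), and Ptn, a secreted growth factor (at least 1.67-fold).

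The rest of the 20 do not share a cell type. Osr2, a zinc finger transcription factor, rose from 7.89, 7.68 and 7.74 to 9.60, 9.36 and 9.42 (+1.69, limma adjusted p = 0.00027). Rdm1, a protein with a RAD52-like motif, rose from 6.23, 6.19 and 6.21 to 7.95, 7.83 and 7.95 (+1.70, limma adjusted p = 0.000158). Cptp, which transfers ceramide 1-phosphate between membranes, rose from 9.74, 9.91 and 9.82 to 11.40, 11.23 and 11.13 (+1.43, limma adjusted p = 0.00058). Clec2d, a lectin-like ligand of natural killer receptors, was not detected in wild type and at least 2.62-fold higher in Wip1-/-. Ifitm3 and Ifitm2, membrane proteins that restrict viruses, were 1.64 and 1.5 higher on the log2 scale, and the probe of ND4L, a subunit of complex I encoded in mitochondria, was 1.49 higher with 1 wild type array detecting it.

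**Figure D2:**
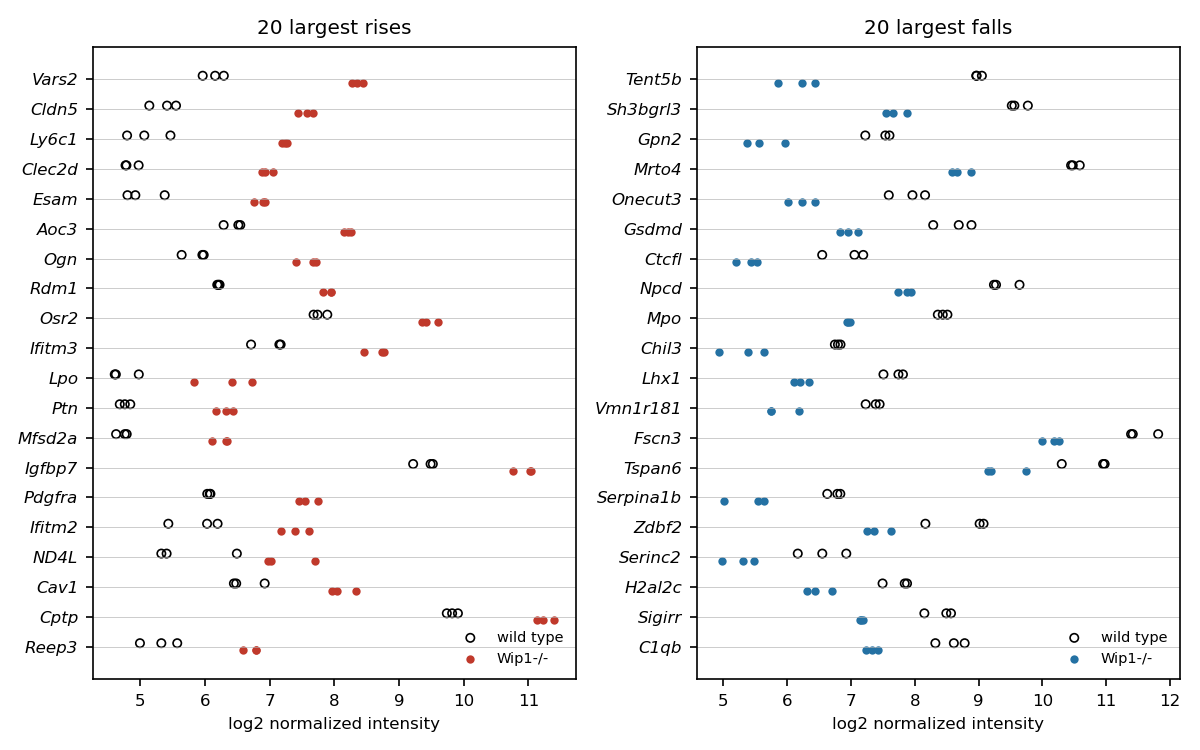
Levels on each array of the 20 called genes with the largest rise (left) and the 20 with the largest fall (right) whose genotypes do not overlap. The x axis is the log2 normalized intensity, open circles are the 3 wild type arrays and filled circles the 3 Wip1-/- arrays. Tent5b, at the top right, dropped from 8.96 to 9.05 in wild type to 5.86 to 6.44 in Wip1-/-.

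The deepest fall was in Tent5b, a noncanonical poly(A) polymerase of the TENT5 family. It stood at 8.96, 9.05 and 8.97 in wild type and at 6.24, 6.44 and 5.86 in Wip1-/-, a difference of -2.81 (SE 0.15, limma adjusted p = 0.000104), or 7.04-fold. No other gene tested changed as much in either direction. Sh3bgrl3, a small thioredoxin-like protein, fell from 9.77, 9.52 and 9.56 to 7.87, 7.55 and 7.66 (-1.92), and Gpn2, a GTPase for the assembly of RNA polymerases, from 7.60, 7.54 and 7.23 to 5.38, 5.56 and 5.96 (-1.82), where 2 of the 3 Wip1-/- arrays detected it. Mrto4, a factor of ribosome assembly, fell from 10.59, 10.48 and 10.45 to 8.66, 8.59 and 8.88 (-1.79). All 4 genes lie on chromosome 4, and the limma adjusted p of the last 3 ran from 0.000203 to 0.000847.

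Ctcfl, also called BORIS, the germ cell paralogue of the insulator protein CTCF, stood at 7.06, 7.19 and 6.55 in wild type and at 5.20, 5.53 and 5.44 in Wip1-/-, where 2 arrays detected it. The difference was -1.54 (SE 0.18, limma adjusted p = 0.00152), and the genotypes did not overlap. Gsdmd, the pore-forming gasdermin of pyroptosis, fell from 8.29, 8.89 and 8.69 to 6.96, 6.83 and 7.11 (-1.66, limma adjusted p = 0.000998). Fscn3, a fascin of the testis that bundles actin, fell from 11.39, 11.42 and 11.81 to 9.99, 10.26 and 10.18 (-1.40, limma adjusted p = 0.00115). Of these, Fscn3 and Ctcfl are known for germ cells. Onecut3 (-1.68) and Lhx1 (-1.47) encode homeodomain transcription factors, and Zdbf2 (-1.34) is an imprinted gene whose second probe went the other way (+0.72, limma adjusted p = 0.0227).

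4 genes known from myeloid cells or plasma were also among the 20 largest falls. Mpo, the myeloperoxidase of neutrophils, fell from 8.51, 8.36 and 8.44 to 6.95, 6.94 and 6.98 (-1.48, limma adjusted p = 0.00027). Chil3, a chitinase-like protein of macrophages, fell from 6.75, 6.84 and 6.80 to 5.64, 4.93 and 5.39 (-1.48), with 1 Wip1-/- array detecting it. C1qb, a complement subunit made by macrophages, fell from 8.78, 8.61 and 8.32 to 7.33, 7.23 and 7.43 (-1.24), and Serpina1b, an antitrypsin, fell by 1.35 on the log2 scale. The macrophage and myeloid list as a whole did not fall. Of its 18 tested genes 4 were called higher and 2 lower, and 13 had a positive change.

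Markers of cells other than spermatids were read as whole lists, since RNA of a bulk sample can come from any cell in it. In such samples fewer cells of a type and less RNA per cell cannot be told apart. Genes of fibroblasts and extracellular matrix were higher in Wip1-/-: of 30 tested, 21 were called higher and 0 lower, with a median change of 0.72 against 0.03 over all genes. Of the 22 detected on all 6 arrays, 17 were higher and 0 lower (background 10.9% and 9.97%). Col4a1, a basement membrane collagen, went from 7.53, 7.5 and 7.36 to 8.76, 8.56 and 8.85 (+1.26, limma adjusted p = 0.000856). Bgn, the proteoglycan biglycan, went from 9.03, 8.83 and 8.97 to 10.16, 10.08 and 10.08 (+1.16, limma adjusted p = 0.000856). The summed normalized intensity of the 30 genes was 6820 to 7056 in wild type and 12160 to 13060 in Wip1-/-. Defining members Col1a2, Col3a1, Postn and Dpt were among the 11 of 48 that no array detected.

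Smooth muscle and peritubular genes mark vessel walls and the contractile cells around the tubules. They gave 9 of 16 called higher (56.2%, against 10.3% of all genes) and 1 lower, with a median of 0.79. Of the 13 detected on all 6 arrays, 9 were higher and 1 lower. Acta2, smooth muscle actin, stood at 11.65, 11.69 and 11.65 in wild type and at 13.02, 12.86 and 12.96 in Wip1-/-, and its other 2 probes changed by 1.39 and 1.31. It rose by 1.28 (SE 0.11, limma adjusted p = 0.000588) without overlap. Mylk, myosin light chain kinase, rose by 1.32, Myl9, a myosin light chain, by 1.17, and Myh11, smooth muscle myosin, by 1.13. The summed intensity was 16530 to 18080 in wild type and 22090 to 23590 in Wip1-/-. Bright genes such as Acta2 weigh most in this sum. Of 23 markers 4, Cnn1, Synpo2, Rgs5 and Pln, were undetected throughout.

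Endothelial genes gave 10 of 15 called higher (66.7%, against 10.3% of all genes) and 0 lower. Of the 7 detected on all 6 arrays, 3 were higher and 0 lower, with a median of 0.33. Leaving out Wip1-/- replicate 1, 2 or 3 left 2, 2 and 1 endothelial genes called, since genes detected on 3 Wip1-/- arrays only then dropped below the minimum of 3 arrays. Of 28 endothelial markers on the array, 7 to 9 were detected on each wild type array and 16 to 19 on each Wip1-/- array, and Kdr, Plvap, Erg, Mmrn2, Clec14a, Ecscr and Gpihbp1 on none. Flt1 and Tek, receptors for VEGF and angiopoietin, were undetected in wild type and at least 1.90-fold and 1.5-fold higher. The summed intensity was 1655 to 1683 in wild type and 2363 to 2427 in Wip1-/-. This sum includes genes that passed the filter through the Wip1-/- arrays alone, so nothing is read from its direction. The part of vessel, muscle and connective tissue RNA in the other results was not tested.

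Other testis cells were represented by fewer called genes. Their shares stand beside 10.3% called higher and 7.94% called lower over all genes. For Leydig cells, the steroid producers, 3 of only 5 tested genes were higher (60%). Vcam1, an adhesion molecule of many cell types, was at +1.39 (limma adjusted p = 0.000658). But Star, Cyp17a1, Hsd3b1 and 7 more of 16 Leydig markers were undetected on every array, and 1 Leydig gene was called higher without Wip1-/- replicate 1. For Sertoli cells, the nurse cells of the tubule, 1 of 14 was higher (7.14%). It was Trf, at least 1.40-fold, which fell below the detection minimum without any 1 of the Wip1-/- arrays. The summed Sertoli intensity overlapped, at 3752 to 4359 in wild type and 3942 to 4159 in Wip1-/-. Gata4, Amh, Fshr and 5 more Sertoli markers were undetected throughout. Macrophage and myeloid genes split, with 4 of 18 higher (22.2%), among them Lyz2 (+0.96) and Fcer1g (at least 1.66-fold), and 2 lower (11.1%), Mpo and C1qb. The number higher was 2 without Wip1-/- replicate 1 and 1 without replicate 3. Their summed intensity overlapped (8039 to 10680 and 8004 to 8739), and Ptprc, Tyrobp, Itgam and Spi1 were undetected throughout.

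Globin transcripts were higher: Hba-a1 went from 5.92, 6.09 and 5.58 to 7.22, 6.95 and 6.96 (+1.18, limma adjusted p = 0.00225), and Hbb-bs from 7.16, 6.91 and 6.77 to 7.97, 8.32 and 7.91 (+1.12, limma adjusted p = 0.00261). The globin genes are near-identical copies, so their signals cannot be fully separated. Summed over the 4 erythroid genes tested, the intensity was 347.3 to 395.4 in wild type and 610 to 674.3 in Wip1-/-, while Alas2 and Slc4a1 were undetected. Of 6 lymphocyte genes tested, none was called: Cd4 stood at -0.43 (limma adjusted p = 0.0629) and Zap70 at +0.34 (limma adjusted p = 0.0958). The summed lymphocyte intensity was 2631 to 4219 in wild type and 2494 to 2657 in Wip1-/-. Among spermatogonial genes 1 of 10 was called higher (10%, against 10.3% of all genes). It was Dazl, a translation regulator that binds RNA in germ cells, at +0.57 (limma adjusted p = 0.037). The list median was 0.05. The summed spermatogonial intensity, in which Dazl as a bright member weighs heavily, was 2304 to 2569 against 2835 to 3104. Meiotic prophase genes gave 1 higher and 3 lower of 22 (4.55% and 13.6%, against 10.3% and 7.94% of all genes), with overlapping sums of 101700 to 114000 and 110800 to 114800. Of 5 epididymal genes 1 was lower (20%, against 7.94% of all genes), the cystatin Cst11 (-0.83), with sums of 2049 to 2083 against 1748 to 1857. The lower meiotic genes were Syce2 (-0.87) and Sycp1 (-0.76), parts of the synaptonemal complex, and Trip13 (-0.63). None of them was called without Wip1-/- replicate 1 or wild type replicate 1, and 1 was without Wip1-/- replicate 2 or 3 or wild type replicate 3. Dazl was called without wild type replicate 3 but not with any other array left out.

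**Figure D3:**
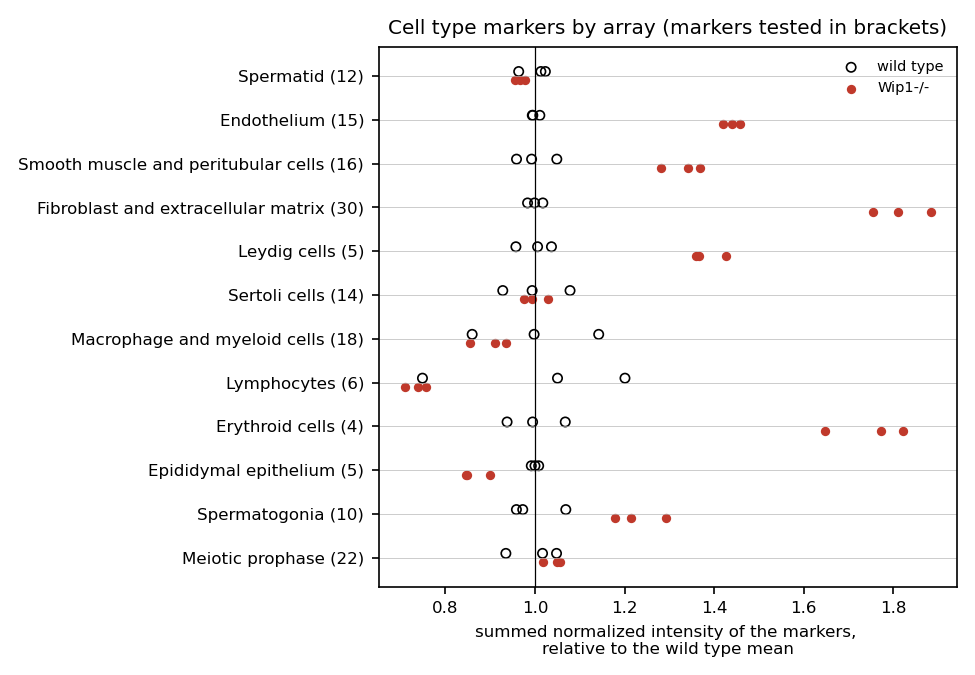
Summed normalized intensity of the tested markers of each cell type on every array, divided by the wild type mean, so that 1 is the wild type mean. Open circles are wild type and filled circles Wip1-/- arrays (3 each), and the number of markers tested stands in brackets. Endothelial, smooth muscle, fibroblast, Leydig, erythroid and spermatogonial sums lie above all wild type arrays, epididymal sums below, and the remaining lists overlap. Tested markers include genes that passed the detection filter through the Wip1-/- arrays alone, such as Ly6c1 and Esam. That selection favours higher Wip1-/- sums, as in the endothelial list, where 7 of 15 tested members were detected on all 6 arrays. Sums of linear intensity weigh bright members most, such as Acta2 in smooth muscle and Dazl in spermatogonia, so a sum need not follow most members. The median change of the spermatogonial list was 0.05.

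Within the spermatid programme, several genes of chromatin remodelling fell. Of 22 genes for the exchange of histones for protamines, 10 were called lower and 0 higher (45.5% lower, against 7.94% of all genes), with a median change of -0.26. H1f7, the spermatid linker histone H1T2, stood at 13.46, 13.29 and 13.42 in wild type and at 12.69, 12.81 and 12.73 in Wip1-/- (-0.65, limma adjusted p = 0.00636). Hmgb4, an HMG-box protein, went from 13.00, 12.48 and 12.70 to 11.67, 12.07 and 11.82 (-0.87, limma adjusted p = 0.00857). Camk4, the kinase that phosphorylates protamine 2, went from 7.60, 7.55 and 7.71 to 6.94, 7.06 and 6.94 (-0.64, limma adjusted p = 0.00633). None of these 3 overlapped, and all were called in every alternative. Some of the main DNA-packing genes are named here after their values were seen, so no group result is read from them. Prm1 stood at -0.03 (limma adjusted p = 0.88) and Tnp1 at +0.11 (limma adjusted p = 0.567). Tnp2 stood at -0.48 (limma adjusted p = 0.018) and was itself called lower. Without Wip1-/- replicate 1 or 3 the number called lower was 5, and with replicate 2 left out 6.

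Histone genes as a whole gave 18 of 53 lower (34%, against 7.94% of all genes) and 1 higher, with a median of -0.26. The lists share members, so their counts are not separate results. H2al2a and H1f7 were also counted for histone exchange, and H2al1m among the sex-linked genes below. The H2A.L variants, which load transition proteins in mouse spermatids, were among them. H2al2a went from 12.41, 12.48 and 12.62 to 11.71, 11.67 and 11.62 (-0.83, limma adjusted p = 0.00244), H2al1m from 14.37, 14.38 and 14.44 to 13.44, 13.81 and 13.76 (-0.73, limma adjusted p = 0.0073) and H2al2c from 7.88, 7.5 and 7.84 to 6.44, 6.71 and 6.31 (-1.25, limma adjusted p = 0.00191). All arrays of Wip1-/- lay below all wild type arrays in each. These variants and the clustered histone genes, such as H3c7 (-0.74), exist in near-identical copies, so which copy a probe reads is uncertain. The number called lower was 8 without Wip1-/- replicate 1, 10 without replicate 2 and 9 without replicate 3.

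Genes of the sperm tail were counted by compartment. Of 29 genes listed for the fibrous sheath and outer dense fibres, the cytoskeleton around the axoneme, 5 were lower (17.2%, against 7.94% of all genes) and 0 higher. The list is broader than the structural proteins of these parts, since it includes kinases and Fscn3, the actin-bundling fascin that led the falls. The others were Spata18 (-0.53), Spata3 (-0.46, with 3 further probes at -0.55, -0.83 and -1.13) and the testis kinases Tssk6 (-0.45) and Tssk2 (-0.38). Of 53 axonemal genes 5 were higher and 1 lower, and 42 had a positive change, with a median of 0.21. Dnah8, a dynein heavy chain, went from 10.89, 10.99 and 10.61 to 11.56, 11.40 and 11.71 (+0.73, limma adjusted p = 0.01), and Tekt5, a tektin, from 10.30, 10.25 and 10.11 to 9.51, 9.48 and 9.70 (-0.66, limma adjusted p = 0.00788). The axonemal share called higher, 9.43%, was near that of all genes, 10.3%. Without a background correction 13 axonemal genes were called higher, and 1 or 2 without any 1 of the Wip1-/- arrays. Without wild type replicate 1 or 3 it was 3 and 2. The sheath list had 1 or 2 genes lower without any 1 of the Wip1-/- arrays and 3 without wild type replicate 1.

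Acrosomal genes gave 6 lower and 2 higher of 39 (15.4% and 5.13%, against 7.94% and 10.3% of all genes), with a median of 0.05. Sppl2c, a protease of spermatid membranes, went from 11.77, 11.84 and 11.70 to 10.89, 10.90 and 11.08 (-0.82, limma adjusted p = 0.0028) and held under every alternative. Prss55, a serine protease needed for sperm migration in mice, fell by 0.73 on the log2 scale, and Acrbp, the proacrosin-binding protein, was +0.43. A further Acrbp probe stood at -0.17 (limma adjusted p = 0.664). Without 1 of the Wip1-/- arrays 1 or 2 of the acrosomal genes were lower and 0 higher, and without wild type replicate 1 it was 3 and 0. Of 16 spermatid transcription factors 1 was called, Rfx4 (+0.70), whose 2 further probes stood at -0.28 and 0.01 and which was not called without Wip1-/- replicate 1. Of 22 genes for mRNA storage and translation 1 rose and 1 fell: Paip2b, an inhibitor of poly(A)-binding protein, went from 10.27, 10.69 and 10.74 to 11.30, 11.28 and 11.48 (+0.79), and Cpeb3, a cytoplasmic polyadenylation protein, from 9.70, 9.85 and 9.53 to 8.63, 8.35 and 8.54 (-1.19), while its 2 further probes gave +0.62 and -0.18 and did not pass the test.

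Of 20 glycolytic genes of germ cells 2 were higher and 3 lower (10% and 15%, against 10.3% and 7.94% of all genes). Slc2a3, a glucose transporter (+0.63), and Pfkm (+0.47) were higher, and Pkm (-0.58), Pgk1 (-0.58) and Hk1 (-0.51) lower. The second Pgk1 probe, undetected in wild type, was at least 1.53-fold higher (limma adjusted p = 0.00256), so Pgk1 has no settled direction. Among 21 kinesins 2 were lower (9.52%, against 7.94% of all genes), the motor Kif1a (-1.11) and Kif17 (-1.04), a partner of the spermatid coactivator Fhl5. But a second Kif17 probe rose by 1.03 (limma adjusted p = 0.00703). Of 22 Spata genes 3 were lower and 1 higher (13.6% and 4.55%, against 7.94% and 10.3% of all genes). Spata18 and Spata3, among those lower, were also counted in the sheath list. Of 20 Adam genes 1 was lower (5%), Adam15 (-0.82). A second Adam15 probe rose by 0.75 (limma adjusted p = 0.0255), so Adam15 has no settled direction. Of 14 sperm ion channels and transporters 1 was higher (7.14%), Catsper2 (+0.39). Catsper2 was not called without any 1 of the 6 arrays, and 0, 1 and 1 Spata genes were lower without Wip1-/- replicate 1, 2 and 3. Cystatins, inhibitors of cysteine proteases, gave 5 of 10 lower (50%, against 7.94% of all genes) and 0 higher, with a median of -0.46. Cstl1, the abundant one, went from 13.54, 13.48 and 13.62 to 13.01, 12.98 and 12.86 (-0.60, limma adjusted p = 0.00827), and Cstdc3, Csta3 and Stfa1 belong to 1 cluster of near-identical genes. Cst11, named above among the epididymal genes, was also in this count. The cystatin count was 1 without Wip1-/- replicate 1 and 3 without replicate 2, replicate 3 or wild type replicate 3.

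**Figure D4:**
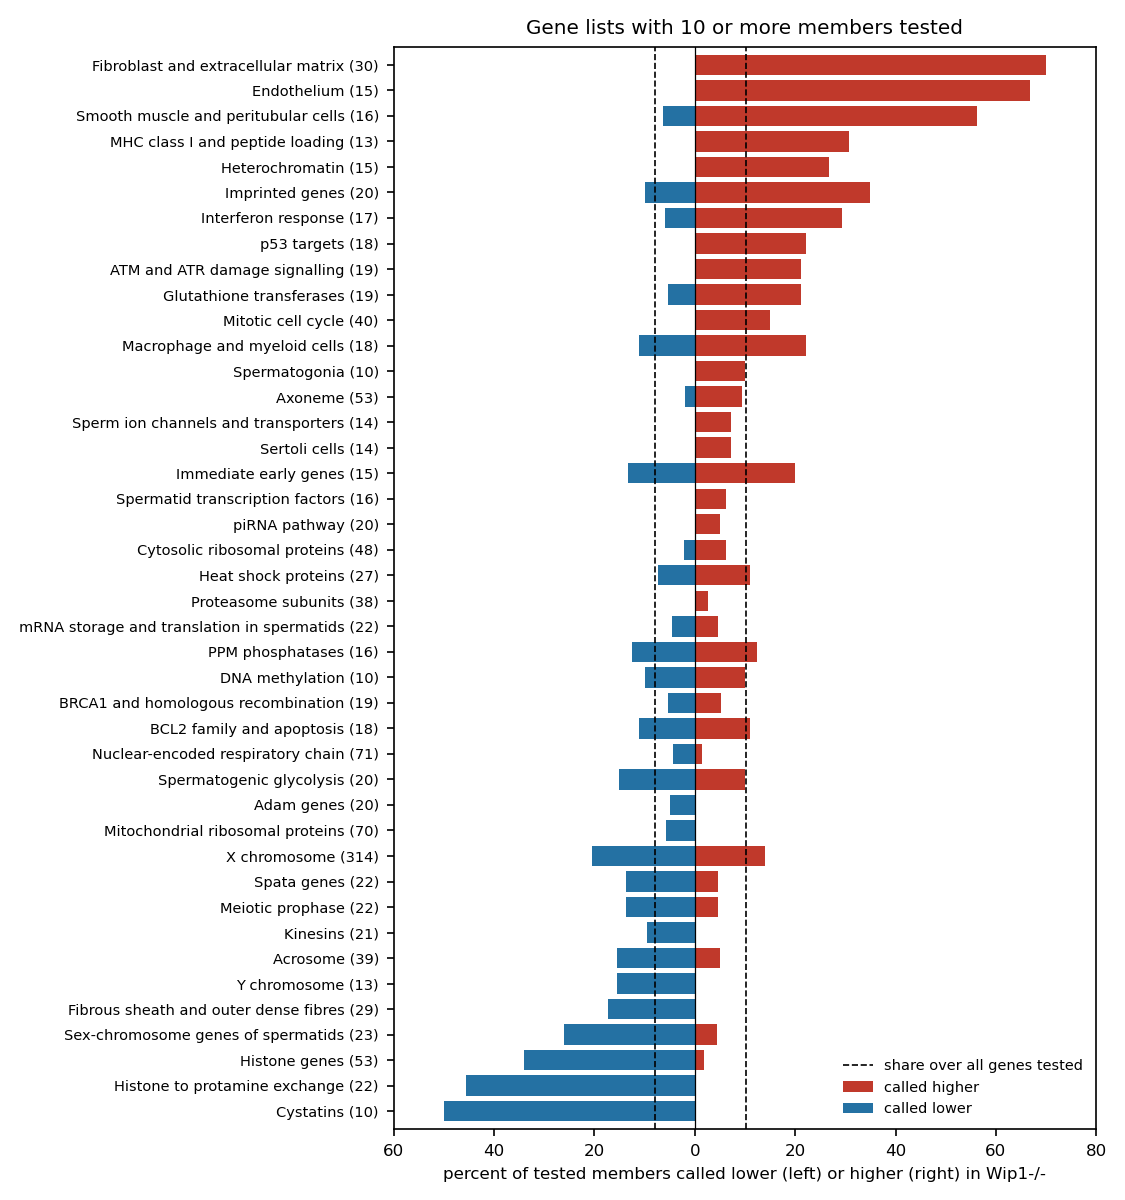
Share of tested members called lower (left, blue) or higher (right, red) in Wip1-/- for each gene list with 10 or more members tested, whose number stands in brackets. The dashed lines mark the shares over all genes, 7.94% lower and 10.3% higher. Some lists share called members, such as the histone and histone exchange lists or the sheath and Spata lists, so the bars are not separate results. Fibroblast, endothelial and smooth muscle lists reach 70.0%, 66.7% and 56.2% on the right, and cystatins and histone to protamine exchange 50% and 45.5% on the left. Of the members detected on all 6 arrays, 17 of 22, 3 of 7 and 9 of 13 of the first 3 lists were higher.

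Genes on the X chromosome are silenced in meiosis and partly reactivated in spermatids. Of 314 tested, 64 (20.4%, against 7.94% of all genes) were lower and 44 (14.0%, against 10.3%) higher, and the median change was -0.04. Among the 235 detected on all 6 arrays 61 were lower and 29 higher. With median scaling the split turned to 52 lower and 60 higher, and without wild type replicate 3 it was 52 and 50. Without 1 of the Wip1-/- arrays, 37 to 47 were lower and 13 to 17 higher. The list of sex-linked genes expressed after meiosis gave 6 of 23 lower (26.1%, against 7.94% of all genes) and 1 higher, with a median of -0.33. Cypt3, of a family of small basic spermatid proteins, went from 14.24, 14.18 and 14.19 to 13.37, 13.69 and 13.53 (-0.67, limma adjusted p = 0.00756), and its 2 further probes changed by -0.99 and -0.70. Tex13a fell by 0.81 and Tspan6, a tetraspanin, by 1.38 on the log2 scale. Of the 13 Y-linked genes tested 2 were lower, H2al2c and Rbm31y (-0.92, limma adjusted p = 0.0269).

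X-linked genes with large changes both ways included Sh3kbp1, an endocytic adaptor, from 11.41, 11.41 and 11.29 to 10.06, 10.17 and 10.17 (-1.24, limma adjusted p = 0.000654). Rbbp7, a histone-binding subunit of chromatin complexes, went from 8.25, 8.45 and 8.29 to 9.58, 9.55 and 9.64 (+1.26, limma adjusted p = 0.000654), and its 2 further probes changed by 1.22 and 1.28. Slc38a5, an amino acid transporter, went from 8.99, 8.94 and 9.12 to 10.24, 10.43 and 10.24 (+1.29, limma adjusted p = 0.000702). None of these overlapped. On the autosomes the share called lower ran from 5.29% on chromosome 19 to 9.88% on chromosome 16 and the share called higher from 8.57% on chromosome 10 to 12.3% on chromosome 6. Chromosome 4 held 10 of the falls over 2-fold among 626 genes, and the X chromosome 9 among 314.

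Genes of the damage response were read in 3 lists. Of 19 genes of ATM and ATR signalling 4 were higher and 0 lower (21.1% higher, against 10.3% of all genes), with a median of 0.23. Beside Atm these were Etaa1, an activator of ATR (+0.66, limma adjusted p = 0.0122), Rnf168, a ubiquitin ligase at DNA breaks (+0.61, limma adjusted p = 0.0277), and Clspn, which links ATR to CHK1 (+0.55, limma adjusted p = 0.024). Further Clspn probes stood at +0.04 and +0.27 and did not pass the test. The count was 1 without Wip1-/- replicate 1 and 2 without replicate 2 or 3, and Atm was the gene called throughout. Of 19 genes of BRCA1 and homologous recombination 1 was higher and 1 lower (5.26% each way, against 10.3% and 7.94% of all genes). Fanca was higher (at least 1.13-fold, undetected in wild type), and Babam1, a subunit of the BRCA1-A complex, lower (-0.41). Of 18 p53 target genes 4 were higher (22.2%, against 10.3%) and 0 lower, with a median of 0.31: Polk (+0.59), Ddb2 (+0.57), Ckap2 (+0.45) and Ercc5 (+0.43). Without Wip1-/- replicate 1 or 3 the p53 count was 0, without replicate 2 or wild type replicate 2 it was 1, and without wild type replicate 1 it was 2. Cdkn1a, the classical p53 target, named here after its value was seen, stood at +0.06 and was not called.

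Of 16 PPM phosphatases 2 were higher and 2 lower (12.5% each way, against 10.3% and 7.94% of all genes). The mitochondrial Pdp2 (+0.61) and Pdp1 (+0.45) were higher, and Ppm1d and its relative Ppm1a (-0.52) lower. Further probes stood at -0.07 for Pdp2, -0.03 for Pdp1, and -0.21 and -0.09 for Ppm1a (limma adjusted p of 0.291 or more). With the mean of the detected probes none of these calls held, and the probes of Ppm1d are given above. Without any 1 of the Wip1-/- arrays 0 PPM phosphatases were higher, and 1, 2 and 0 were lower without replicate 1, 2 and 3. The machinery of DNA methylation showed no common direction: of 10 genes tested Dnmt3l, the cofactor of the de novo methyltransferases, was higher and Ctcfl lower, and the median was 0.06. Dnmt3l went from 9.97, 10.02 and 9.71 to 10.50, 10.31 and 10.39 (+0.50, limma adjusted p = 0.0277), with a second probe at +0.46, but was not called without any 1 of the Wip1-/- arrays or without wild type replicate 3. Of 15 heterochromatin genes 4 were higher (26.7%, against 10.3% of all genes) and 0 lower, with a median of 0.14. They were Cbx5, which encodes HP1 alpha (+0.62), the histone H4 methyltransferase Kmt5c (+0.57), Smchd1 (+0.50) and the histone H3 methyltransferase Setdb1 (+0.43). A further Smchd1 probe stood at -0.11 (limma adjusted p = 0.652). Without Wip1-/- replicate 1 or 3 the count was 0, without replicate 2 it was 1, and without wild type replicate 1 it was 2. Of 20 piRNA pathway genes, which silence transposons in germ cells, 1 was called, the helicase Ddx4 (+0.65, limma adjusted p = 0.0373), and its second probe stood at -0.24.

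Imprinted genes, which DNA methylation marks by parent of origin, gave 7 of 20 higher (35%, against 10.3% of all genes) and 2 lower (10%, against 7.94%), with a median of 0.16. Zdbf2, named above among the largest falls, is not on this list and not in these counts. Ndn, of the Prader-Willi region, went from 6.63, 6.72 and 6.68 to 7.75, 7.76 and 7.40 (+0.96, limma adjusted p = 0.00252). Asb4 went from 7.49, 7.08 and 7.44 to 5.83, 6.71 and 6.41 (-1.02, limma adjusted p = 0.015). The noncoding Kcnq1ot1 was +0.70, with a second probe undetected in wild type and at least 1.75-fold higher, and Impact +0.64, while Snurf was -0.71. Dcn (+0.91), a matrix proteoglycan of fibroblasts, is also a member of the fibroblast list, which rose. Without 1 of the Wip1-/- arrays 3 imprinted genes were called higher.

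Interferon response genes gave 5 of 17 higher and 1 lower (29.4% and 5.88%, against 10.3% and 7.94% of all genes), with a median of 0.26. Beside Ifitm3 and Ifitm2, the transcription factors Irf9 (at least 1.35-fold) and Irf1 (+0.56) and the antiviral Mx1 (at least 1.12-fold) were higher. Xaf1 went from 12.43, 12.47 and 12.44 to 11.96, 11.95 and 11.91 (-0.51, limma adjusted p = 0.0126). Of the 9 members detected on all 6 arrays 2 were higher and 1 lower, and without Wip1-/- replicate 1, 2 or 3 the number higher was 3, 3 and 2. Genes of MHC class I presentation gave 4 of 13 higher (30.8%, against 10.3% of all genes) and 0 lower. B2m, the common light chain, went from 8.95, 8.88 and 9.0 to 9.56, 9.55 and 9.71 (+0.66, limma adjusted p = 0.0056). Pdia3, H2-T23 and H2-D1 were +0.63, +0.57 and +0.55, and 2 genes of the list were called higher without Wip1-/- replicate 1 or 3. Endothelial, muscle and fibroblast markers were higher on the same arrays, and their part in these results was not tested.

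Immediate early genes went both ways. Jund, a subunit of AP-1, went from 9.92, 10.03 and 9.38 to 8.56, 8.51 and 8.61 (-1.22, limma adjusted p = 0.00273), and Nr4a3, a nuclear receptor, from 7.02, 7.26 and 7.01 to 6.03, 6.27 and 6.24 (-0.91, limma adjusted p = 0.00275). Fos, undetected in wild type, was at least 1.34-fold higher, and Egr3 (+0.65) and Klf6 (+0.47) were higher, but at most 1 immediate early gene was called higher without any 1 of the Wip1-/- arrays or wild type replicate 1. Of 27 heat shock genes 3 were higher and 2 lower (11.1% and 7.41%), near the 10.3% and 7.94% of all genes. Among them were Hspa1a (at least 1.31-fold, undetected in wild type) and the testis form Hspa1l (-0.49). Leaving out Wip1-/- replicate 1, 2 or 3 gave 1, 0 and 0 heat shock genes higher and 0, 1 and 1 lower, and leaving out wild type replicate 1 gave 1 and 0. Of 18 BCL2 family and apoptosis genes 2 were higher and 2 lower (11.1% each way, against 10.3% and 7.94% of all genes). Bok (+0.75) and Casp9 (+0.56) were higher, and Bcl2l14 (-0.91) and the death inducer Bcl2l11 (-0.75) lower. A further Bcl2l14 probe stood at +0.10 (limma adjusted p = 0.612) and a further Bcl2l11 probe at -0.17 (limma adjusted p = 0.538). In this list 0 were lower without Wip1-/- replicate 1, and at most 1 each way was called without any 1 of the Wip1-/- arrays. Of 40 mitotic genes 6 were higher (15%, against 10.3% of all genes) and 0 lower, with a median of 0.15. Ccnd2, a cyclin, went from 5.80, 5.18 and 5.64 to 6.79, 6.45 and 6.43 (+1.01), and the replication gene Gins1 from 6.87, 7.47 and 7.07 to 8.08, 7.75 and 7.88 (+0.76). The mitotic count was 3 without Wip1-/- replicate 1 and 2 without replicate 3.

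Few genes of housekeeping complexes were called. The shares, beside 18.3% of all genes, were 2.63% of 38 proteasome subunits, 5.63% of 71 nuclear genes of the respiratory chain, 5.71% of 70 mitochondrial ribosomal proteins and 8.33% of 48 cytosolic ribosomal proteins. The cytosolic ribosomal genes that rose included Rpl39, from 9.0, 9.43 and 10.14 to 10.59, 10.83 and 10.69 (+1.18, limma adjusted p = 0.0141), and both it and Rpl36a (+0.66) are X-linked. All 4 called mitochondrial ribosomal genes fell, with Mrps15 at -1.05, and 1 did so without any 1 of the Wip1-/- arrays or wild type replicate 1. Transcripts of the mitochondrial genome went the other way, with 3 of 7 higher and a median of 0.70. ND4 went from 13.10, 13.24 and 13.64 to 14.23, 14.41 and 14.47 (+1.05, limma adjusted p = 0.00365) and CYTB from 13.49, 13.63 and 14.03 to 14.57, 14.83 and 14.73 (+0.99, limma adjusted p = 0.00449). Wild type replicate 3 was the highest of the wild type arrays for both, and without it 5 of the 7 were called higher. Glutathione transferases gave 4 of 19 higher and 1 lower (21.1% and 5.26%, against 10.3% and 7.94% of all genes). Gstm2 was at +1.02, with its 2 further probes at 1.10 and 1.03, and the microsomal Mgst2 was lower (-1.19). Without any 1 of the Wip1-/- arrays or wild type replicate 3, 2 transferases were called higher.

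Some probes were detected in 1 genotype only. On all 3 Wip1-/- arrays and no wild type array 420 probes of 326 genes were detected. On all 3 wild type arrays and no Wip1-/- array 55 probes of 32 genes were detected. Among them 288 and 47 were called, beside 16.6% of 17903 detected probes, and since these probes were chosen for that contrast nothing is read from their share. The share of detected probes was higher on all Wip1-/- arrays, as given above. A stricter detection p of 0.01 gave 475 and 41 probes. Beside Ly6c1, Clec2d and Esam, the Wip1-/- side held Mrvi1, a smooth muscle protein of the cGMP pathway (at least 2.07-fold), Slc2a1, a glucose transporter (at least 2.02-fold), and Etl4 (at least 1.99-fold). The wild type side held Guca2a, a guanylin precursor (at least 1.74-fold), Clps, pancreatic colipase (at least 1.62-fold), and Sdcbp2 (at least 1.58-fold).

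In several of these genes another probe disagreed. Necap2, an endocytic protein, had a probe at 6.98, 6.83 and 7.06 in wild type that was undetected in Wip1-/- (at least 2.91-fold lower), while its brightest probe differed by -0.16 (limma adjusted p = 0.379). Cdh23 lost a probe in the same way (at least 2.12-fold) with its brightest at +0.14. Nfib and Hipk2 gained a probe in Wip1-/- (at least 2.39-fold and 2.13-fold) with their brightest at -0.17 and -0.82. Over all genes, 593 called genes had a further detected probe. The second-brightest probe had the same sign in 479 of them (80.8%) and was itself called with that sign in 224 (37.8%), while 13 were called with the opposite sign. Among 2681 genes not called the sign was shared in 64.1%. Of 62 genes changed over 2-fold with a further probe, 54 shared the sign and 38 were called again.

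The surroundings of Ppm1d on chromosome 11 were read because Ppm1d is the gene that the label names. Of the 20 tested genes on each side, 4 were higher and 5 lower, against 92 higher and 57 lower of 846 on the chromosome. The changed genes did not include the closest ones. Lhx1, 9 places before Ppm1d, fell by 1.47 on the log2 scale. At places 16 to 18 after it stand Tspoap1 (+1.21), Mpo (-1.48) and Lpo in a row, and Lpo, the lactoperoxidase, was undetected in wild type and at least 1.69-fold higher. Around Tent5b on chromosome 4, 3 neighbours were higher and 6 lower, with a median of -0.09, against 72 higher and 61 lower of 626 on the chromosome. Map3k6, the gene just before it, stood at -1.06, Cd164l2 at -1.10, Gpn2, 4 places after it, at -1.82 and Sh3bgrl3, 11 places after it, at -1.92.

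**Figure D5:**
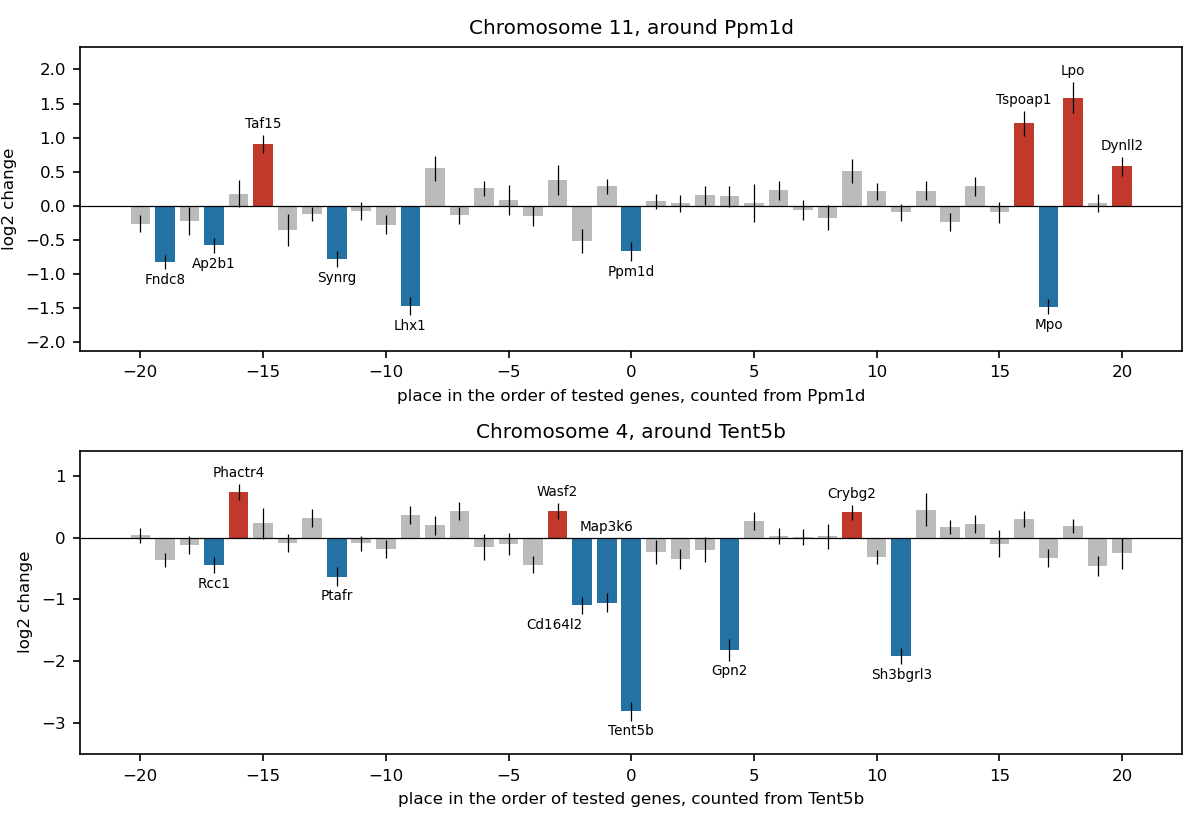
Log2 change of the 20 tested genes on each side of Ppm1d (top) and of Tent5b (bottom), in their order along the chromosome. Bars are log2 changes, Wip1-/- minus wild type (3 arrays each), with the standard error, red where called higher, blue where called lower and grey where not called. Genes next to Ppm1d were not called, while Tspoap1, Mpo and Lpo changed in alternate directions, and 4 of the falls around Tent5b exceed 1 on the log2 scale. The bar of Lpo is measured against an undetected wild type signal.

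Promoters of the changed genes were searched for 2 motifs on both strands in the 300 bases that RefSeq gives around each start. They were the cAMP response element TGACGTCA, the site of the spermatid activator CREM, and the CArG box, the site of serum response factor in muscle genes. A promoter was matched for 8203 of 10073 genes. The cAMP response element occurred in 3.40% of them (95% Wilson interval 3.03% to 3.82%), in 3.06% of genes called higher (2.09% to 4.44%) and in 2.65% of genes called lower (1.66% to 4.21%). It was in none of the called genes of histone exchange (9 with a promoter), fibrous sheath (5) and acrosome (7). The CArG box occurred in 1.49% of all promoters, 2.35% of those called higher and 1.87% of those called lower. Among the tested genes of histone exchange the box was in 4 of 20 promoters (20%, 95% Wilson interval 8.07% to 41.6%). That list includes H2A.L variants, which exist in near-identical copies, so its promoters need not be independent. The intervals cover counting error only, and a match or its absence in this window says nothing of a factor's binding.

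Of 7 called smooth muscle genes with a promoter, 1 held a CArG box, Myl9, whose levels were 9.23, 9.04 and 8.96 in wild type and 10.12, 10.32 and 10.30 in Wip1-/-. Its promoter is shown with the box in capitals, which begins at base -161 from the start (RefSeq, GRCm38.p6, plus strand).
Myl9, chr2:156775214-156775513: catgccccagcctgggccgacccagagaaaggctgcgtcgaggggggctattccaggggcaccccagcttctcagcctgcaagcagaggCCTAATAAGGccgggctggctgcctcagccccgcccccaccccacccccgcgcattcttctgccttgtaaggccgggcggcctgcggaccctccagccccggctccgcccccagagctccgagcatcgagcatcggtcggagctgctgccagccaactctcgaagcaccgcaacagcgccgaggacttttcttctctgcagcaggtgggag
CpG content was summarised by direction of change. The median observed over expected ratio was 0.748 over all promoters, 0.738 for genes called higher and 0.587 for genes called lower. Among changes over 2-fold it was 0.589 for higher and 0.529 for lower. Promoters of X-linked genes had a median of 0.543, and those of the histone exchange, sheath and acrosome lists of 0.382, 0.244 and 0.292.

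Some probes have processed but no scanner values in the tables used here, and 408 genes are known through them alone. They were tested on log2 of the authors' processed intensity, in which 3480 of 45279 probes were called (7.69%). Of these genes 15 were higher and 14 lower (7.11%). Rps4x, an X-linked ribosomal protein, went from 8.50, 8.95 and 8.97 to 9.99, 10.002 and 9.88 (+1.15, limma adjusted p = 3.54e-05). Tcf21, a transcription factor of mesenchymal cells, went from 6.96, 7.08 and 7.05 to 7.81, 7.83 and 7.81 (+0.79, limma adjusted p = 6.1e-05), and Gtsf2 was +0.72. Among the falls were Cyb5d1 (-0.70), Spata32 (-0.61), Cby2 (-0.54) and Ccin, the calicin of the sperm head (-0.45). H3c1 (-0.61) and H3c6 (-0.49) are further clustered histone genes. The count of calls was 16 without Wip1-/- replicate 1 and 18 without replicate 3, against 29.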

How the data were processed

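RNA of 6 arrays was compared, 3 wild type and 3 Wip1-/-, grouped by the genotype label. The deposited scanner table holds, per the file headers, a raw intensity of each probe with its detection p-value, used as a score: 895 of its cells over the 9 arrays had lost the decimal point and were read as thousandths, at 0.125 or more each. The authors' second table holds processed intensity of the same arrays, whose columns share 1 distribution and rank probes as the scanner does; no source used here names the scanner software. Of 45279 probes, 1697 have no scanner values. Of all probes 34885 have 1 gene symbol, 18 several and 10376 none, and 34807 matched the gene table of GRCm38.p6 by Entrez identifier, which changed 0 symbols.

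The neqc function of limma (3.58.1, R 4.3.3) was applied to the 6 arrays (background from detection p, offset 16, quantile normalization), which shrinks changes of dim probes and removes differences in total RNA. Probes detected at p under 0.05 on at least 3 of 6 arrays were kept (17903), and the brightest per gene was tested (10073 genes, 3274 with several probes) with lmFit and eBayes, two-sided, with Benjamini-Hochberg adjustment at 0.05 (4 residual and 4.94 prior degrees of freedom). The code was tested on simulated data. Tables were handled with pandas 2.3.3 and intervals, which cover counting error only, with scipy 1.17.1. Lists are described by counts and medians, with no set test. The members and lists were chosen with earlier results of these data known. Named were Ppm1d, Atm and Brca1, the 20 largest changes each way without overlap, up to 6 called members per list (or 2 with the smallest p where none was called), up to 8 genes each way detected in 1 genotype only, without scanner values or near Ppm1d and Tent5b. Clone and locus names (103 called genes) were counted only. The files give no chip or scan date, so no batch could be tested. Replicate numbers do not pair the samples: deviations of same-numbered arrays correlated at -0.04, -0.31 and -0.10. Alternatives changed background, scaling, filter, probe rule, table, arrays in the fit and the replicate block.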

Additional observations from a re-analysis of the deposited data

How the results depend on the processing

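Of 226 named results that were called, 114 stayed called under every alternative in which they were tested. The number of genes called was 1545 to 2259 over the alternatives that kept all 6 arrays and no block. With the replicate number as a replicate block it was 1169 (672 higher, 497 lower), with 1144 genes shared, and the numbers do not pair the arrays. Leaving out 1 array gave 733 to 1736 genes, 364 to 999 higher and 368 to 737 lower. Median scaling gave 1632 higher and 627 lower. The cause was not tested, apart from the loss of 1 sample. Signs turned with the mean of the detected probes for Cdh23 (-0.25), Hipk2 (0.061), Nfib (0.75), Pgk1 (0.46) and Ppm1d (0.17), whose probes disagree, with median scaling for Necap2 (0.030) and Nfib (0.017), and with all 9 arrays for Nfib (1.36). Genes without scanner values gave 8 calls (4 higher, 4 lower) after subtracting 50 and flooring at 16, and 16 to 33 (9 to 15 higher, 7 to 18 lower) with 1 array left out. The cAMP response element occurred in 2.89% of promoters in the 250 bases before the start. Dim probes near the detection limit, such as genes detected in 1 genotype only, allow only bounds.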
